A study of Mus musculus with 20 samples.

Results

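Regions of open chromatin that all 3 adult mammary epithelial populations shared, and for which no peak was listed in fetal mammary stem cells, numbered 3205 of 128797 merged regions (2.49%). They were found by merging the pooled peak lists of 4 normal mouse cell populations and keeping regions with a peak in basal, luminal progenitor and mature luminal cells and none in the fetal cells. Peaks came from ATAC-seq, in which the Tn5 transposase cuts and tags accessible DNA. The normal cells were sorted from wild-type mammary glands of C57BL6J mice: fMaSC (fetal mammary stem cells) from embryos at day 18, and basal cells, luminal progenitors and mature luminal cells from adults, with 2 samples each. The tumour readout came from luminal PY230 cells, from a mammary tumour line that was transplanted into syngeneic C57BL6J mice. These were sorted as SOX10 high (3 samples) or SOX10 low (3 samples). Each normal peak list pools both samples of a type, and 1 line stands for the tumour. The sources used here give neither the ages of the adult mice nor the sorting markers. The labelled cell types were not checked against marker genes, because no annotation of the mm9 build was used.

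A peak in ATAC-seq marks DNA that nucleosomes leave exposed, as at active promoters, enhancers and insulators. Promoters are often open in many cell types, whereas enhancers tend to differ between types and stages. Fetal mammary stem cells are the precursors of the gland before birth. In the adult, basal cells form the contractile outer layer, luminal progenitors give rise to secretory cells, and mature luminal cells sense hormones. SOX10 is a transcription factor of the neural crest that is also present in mammary epithelium.

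The regions were chosen by the presence of a peak in the 4 lists, so their adult peaks and the missing fetal peak describe the selection and carry no test. An absent peak means that none was called at a q-value of 0.001, not that the DNA was closed, and the depth of each sample is unknown. Fewer cells with an open site and a site less open in each cell cannot be told apart in such bulk samples. Intervals below are 95% binomial intervals and cover counting error over regions only. With pooled lists there was no spread between mice to compare with.

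Most adult-shared regions held a single peak of each adult type and were of middling width. Their median width was 809 bp (lowest 257, highest 5035 bp), against 588 bp over all merged regions and 1332 bp in the 27947 regions with a peak in all 4 types. The other regions with 3 of 4 peaks had medians of 703, 706 and 884 bp. Each adult type had exactly 1 peak in nearly every region: basal cells in 98.5%, luminal progenitors in 97.3% and mature luminal cells in 98.2%. In 3152 of 3205 regions (98.3%) at least 1 base lay in a peak of all 3 adult types, and the median length of that shared stretch was 341 bp. The other 53 regions were joined through chains of peaks. Together the regions covered 2.78 Mb.

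The adult peaks ranked below the middle of the basal and luminal progenitor lists and slightly above the middle of the mature luminal list. The authors' fold is the enrichment of a peak over its background, and each region was given the fold of its strongest peak in each type. The median fold was 6.90 in basal cells (lowest 3.45, highest 28.7), where the whole basal list had a median of 7.98. In luminal progenitors it was 6.24 (3.33 to 28.7), with a list median of 6.86. In mature luminal cells it was 8.97 (3.74 to 35.6), with a list median of 8.47. As percentile ranks within each list, the medians were 40.7 for basal, 43.8 for luminal progenitor and 53.7 for mature luminal peaks. Regions with all 4 peaks lay higher, at 78.3, 73.1 and 69.6. The lists differ in length, so a rank in one list and a rank in another show no change between cell types. Ranks are used here to sort regions and to describe how within-list ranks of the adult peaks compare.

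**Figure D1:**
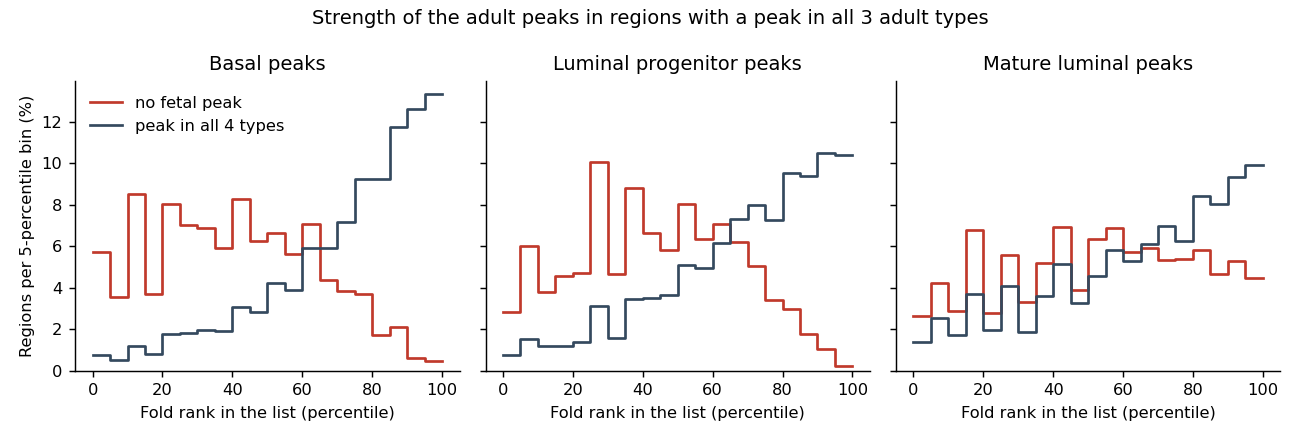
Distribution of the percentile rank of the region's strongest peak within the basal, luminal progenitor and mature luminal lists, in bins of 5 percentiles, for the 3205 regions without a fetal peak (red) and the 27947 regions with a peak in all 4 types (dark). Regions without a fetal peak are few at the highest ranks of the basal and luminal progenitor lists and spread more evenly in the mature luminal list, with medians of 40.7, 43.8 and 53.7.

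The mature luminal peak was the most highly ranked of the 3 adult peaks in 1568 of the regions (48.9%), the basal peak in 885 (27.6%) and the luminal progenitor peak in 752 (23.5%). In regions with all 4 peaks the basal peak led instead, in 52.4%, and the mature luminal peak in 20.9%. Without a fetal peak, ranks in different types were less closely related. Across the 3205 regions, Spearman's rho was 0.0071 between basal and mature luminal ranks, 0.20 between basal and luminal progenitor ranks and 0.33 between the luminal types. It was 0.61, 0.71 and 0.73 for the same pairs across the 27947 regions with all 4 peaks. These are descriptions across regions, which share their libraries and are not replicates.

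Regions shared by the adult types seldom lacked a fetal peak when all their adult peaks were strong. Of 31152 regions with 3 adult peaks, 10.3% had no fetal peak (exact interval 9.95 to 10.6%). When these regions were sorted by the lowest of their 3 adult ranks into 10 classes, the share was 29.2% in the weakest class (27.5 to 30.9%). It declined in every following class and reached 0.158% (5 of 3162 regions) in the strongest. Only 44 regions without a fetal peak had all 3 adult ranks at or above the 75th percentile, compared with 8663 regions with a fetal peak. Examples of weak peaks on either side of the rule were picked for low values, so their low folds describe the pick. Inside it, a region of the lowest adult rank was chr10:66744479-66745177 (mm9). It had a basal fold of 3.45, a luminal progenitor fold of 7.69 and a mature luminal fold of 8.97. Outside it, chr10:40004209-40005118 had the lowest fetal fold found with all 4 peaks, 3.55. Its adult folds were 4.53 (basal), 3.53 (luminal progenitor) and 12.7 (mature luminal). The count itself changed when weak peaks were left out of all 4 lists. It was 1723 with the 30015 strongest peaks of each list and 1462 with peaks at or above their list's median fold. The fetal list was cut as well, so these counts include regions whose fetal peak fell below the cut. With the full fetal list, 416 regions without a fetal peak had all 3 adult ranks at or above the 50th percentile, against 16577 with one.

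A fetal peak was usually close by. The median distance from an adult-shared region to the nearest fMaSC peak was 4798 bp, 2300 regions (71.8%) had one within 10 kb, and 421 (13.1%) within 1 kb. A distance beyond 100 kb was found for 23 regions (0.718%). Other regions with 3 of 4 peaks stood farther from the type they lacked. The median distance was 6724 bp to a basal peak in the 1996 regions lacking one, 9712 bp to a luminal progenitor peak (2464 regions) and 8883 bp to a mature luminal peak (8330 regions). The fMaSC list held 79910 nuclear peaks, the basal list 80294, the luminal progenitor list 60030 and the mature luminal list 61584. The part of list length in the luminal distances was not tested, and the fetal and basal lists were of nearly equal length.

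**Figure D2:**
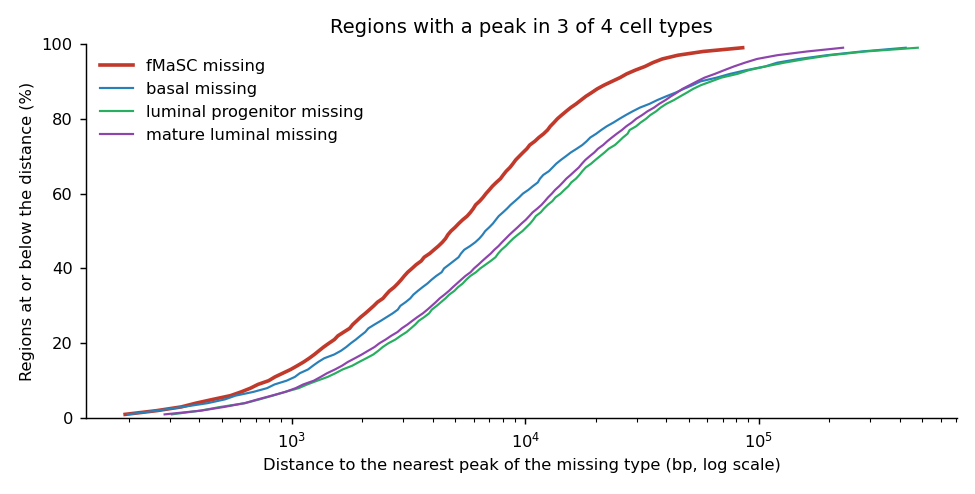
Cumulative share of regions (vertical axis, percent) by distance to the nearest peak of the missing cell type (horizontal axis, bp, log scale) for the 4 kinds of region with a peak in 3 of 4 types. Regions missing only the fetal peak (red) lie to the left of the other curves through most of the range, with 71.8% of them within 10 kb of a fetal peak.

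The strongest of these regions had folds near the top of every adult list. At chr7:65931746-65933114 (1369 bp) the fold was 23.3 for basal, 27.2 for luminal progenitor and 33.6 for mature luminal peaks, and the nearest fetal peak lay 8065 bp away. At chr18:65261830-65263173 the folds were 25.2 for basal, 18.5 for luminal progenitor and 24.9 for mature luminal peaks. At chr11:101560986-101562565 they were 25.2, 17.7 and 30.9 in the same order. The region at chr6:90746108-90747520 was the most even of this group, with folds of 21.1, 21.4 and 21.4. All 4 therefore had high peaks in each adult list and no peak in the fetal list. The first place by lowest adult rank went to chr9:3023960-3024667, with folds of 28.7, 28.7 and 30.9, but a fetal peak lay only 272 bp from it. Whether it lies in a repeat was not tested.

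Strong examples were also those the authors listed for the fetal type. Their fMaSC URR list (the labels do not expand the abbreviation) holds 242 regions. By its overlaps with peaks it contains sites open in the adult types. It comes from the same normal libraries, so the overlap is a description. In all, 145 adult-shared regions (4.52%) overlapped a fetal URR, where the share over all merged regions was 0.22%. Read from the other side, 141 of the 242 URRs (58.3%) lay at these regions, and so did 133 of the 135 URRs that held no fMaSC peak. Of the 10 regions with the highest lowest-of-3 rank, 8 overlapped a fetal URR. The share in a URR was 0.724% (12 of 1657) where the lowest adult rank was below the 25th percentile and 75% (33 of 44) where it was at or above the 75th. Inside URRs the median folds were 11.6 for basal, 10.6 for luminal progenitor and 15.4 for mature luminal peaks, against 6.68, 6.03 and 8.97 outside.

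The fetal URR of highest score at an adult-shared region, with a score written as infinite, lay at chr8:97685944-97687122. That region had folds of 24.1 for basal, 13.7 for luminal progenitor and 14.7 for mature luminal peaks and also overlapped a basal UAR, a list of regions that set a type apart by its own peaks. The next, at chr2:181747495-181748048, was only 554 bp wide, with folds of 12.9, 13.3 and 14.4 in the same order. All 3 adult peaks covered nearly the same bases there (536 bp), and the nearest fetal peak was 59187 bp away. Another was uneven. At chr6:108108421-108109355 the mature luminal fold was 30.1, with 4.10 in basal cells and 7.90 in luminal progenitors, and the region lay in a fetal URR and a mature luminal UAR at once. Fetal URRs thus included both even and lopsided adult regions.

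A minority of the adult-shared regions also belonged to the UAR list of 1 adult type. Mature luminal UARs held 277 of them (8.64%, all merged regions 2.96%), basal UARs 81 (2.53%, all merged regions 4.8%) and luminal progenitor UARs 8 (0.25%, all merged regions 0.273%). Over regions with all 4 peaks the shares were 0.97%, 2.41% and 0.0751% in the same order. By the rule every adult-shared region has a mature luminal peak, whereas 59121 of the 128797 merged regions have one. The shares over all merged regions do not allow for that. In the 277 regions of mature luminal UARs the median ranks were 20.6 for basal, 46.1 for luminal progenitor and 93.5 for mature luminal peaks. In the 81 regions of basal UARs they were 80.5, 35.7 and 29.6. These lists rest on the libraries that chose the regions, and ranks in them describe the subsets only.

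The rule did not use the tumour lists, which by their names come from PY230 libraries. The list names call their regions open or closed in SOX10-high PY230 cells. In the sample descriptions the open list stands with SOX10-high and the closed list with SOX10-low luminal samples, and both are taken here to compare those 2 groups. How they were called, and whether other libraries entered, the sources used here do not say. Closed in SOX10-high cells were 780 of the 3205 adult-shared regions, or 24.3% (exact interval 22.9 to 25.9%). Among all merged regions the share was 11%, among the 59121 regions with a mature luminal peak it was 22.3%, and among regions with all 4 peaks it was 7.33% (2048 of 27947, 7.03 to 7.64%). Against all regions with a mature luminal peak, the adult-shared regions were thus close to the background. Against regions with all 4 peaks they were closed more often, by 17.0 percentage points (95% Newcombe interval 15.5 to 18.6). The closed share was higher without a fetal peak on 20 of 20 chromosomes, by 6.39 points on chromosome 19 at the least and 26.1 points on chromosome 3 at the most. The intervals treat regions as independent, which neighbouring regions are not, and they describe these lists rather than tumours. Restricting each list to its 30015 strongest peaks gave a closed share of 14.5% and a difference of 11.2 points. That cut applied to the fetal list too, so regions whose fetal peak fell below it counted as lacking one.

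Overlaps were seldom marginal, since 777 of the 780 closed regions were covered over at least 50% of their width. The 780 regions met 771 of the 15108 closed PY230 regions, or 5.10% of that list. The highest closed score belonged to chr16:29226739-29227738, with a score of 7126 and folds of 3.88 for basal, 5.61 for luminal progenitor and 23.2 for mature luminal peaks. The next, chr7:53378093-53379101, scored 5367, with folds of 4.53, 4.57 and 25.4. The sources used here do not give the scale of these scores. All 5 regions with the highest closed scores had the same shape, mature luminal folds of 23.2 to 30.4 beside basal folds of 3.88 to 4.96, and each overlapped a mature luminal UAR.

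The lower closed share beside a fetal peak was found for every adult pattern that included a mature luminal peak. Regions with a mature luminal peak alone were closed in 42.8%, against 27.6% where fMaSC had a peak too, a difference of 15.2 points (12.8 to 17.5). With basal and mature luminal peaks the shares were 32.0% and 25.7%, a difference of 6.25 points (3.60 to 8.90). With both luminal types they were 36.9% and 19.3%, a difference of 17.6 points (15.3 to 19.9). The adult-shared regions had the highest ratio of the 4 pairs, 3.32, compared with 1.24 to 1.91 in the others, while their difference in points was close to that of the luminal pair. No test of the difference between pairs was made. Without a mature luminal peak closed shares were 2.06% or lower in all 6 patterns with an adult peak, with or without a fetal one.

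**Figure D3:**
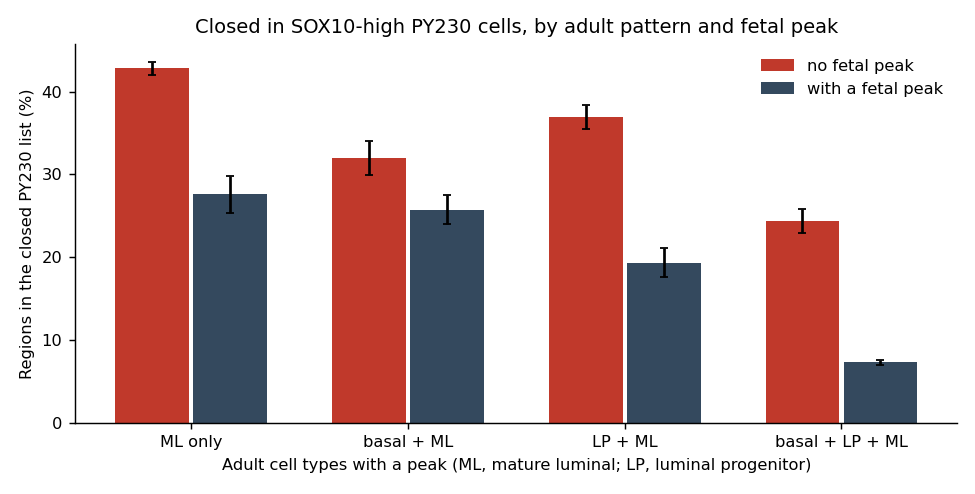
Share of regions overlapping the closed PY230 list (vertical axis, percent, from 0) for the 4 adult patterns that include a mature luminal peak, without (red) and with (dark) a fetal peak; bars are shares and whiskers exact 95% binomial intervals. In each pattern the red bar is the higher, and for regions shared by all adult types the values are 24.3% and 7.33%.

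The difference was present over most of the range of adult peak strength. In the 8 weakest of the 10 classes of lowest adult rank, between 20.2% and 27.02% of the regions without a fetal peak were closed, against 4.36% to 11.995% of those with one. In the 2 strongest classes only 12 and 5 regions lacked a fetal peak, and 1 and 0 of these were closed, too few to set apart from the other regions. It was present in each of 5 width classes and was smaller in narrow regions. Under 500 bp, closed shares were 8.04% without and 4.32% with a fetal peak, a difference of 3.73 points (0.758 to 7.19). From 500 to 1000 bp they were 23.7% and 11.3%, a difference of 12.4 points (10.5 to 14.5). From 1000 to 1500 bp they were 32.0% and 8.46%, a difference of 23.5 points (20.2 to 27.1). In the 128 regions of 1500 to 2000 bp without a fetal peak the share was 35.9%, against 4.41%, and in the 46 wider ones 30.4%, against 3.74%. The excess over regions with all 4 peaks was thus larger in regions above 1000 bp than in narrower ones, with no test between classes.

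**Figure D4:**
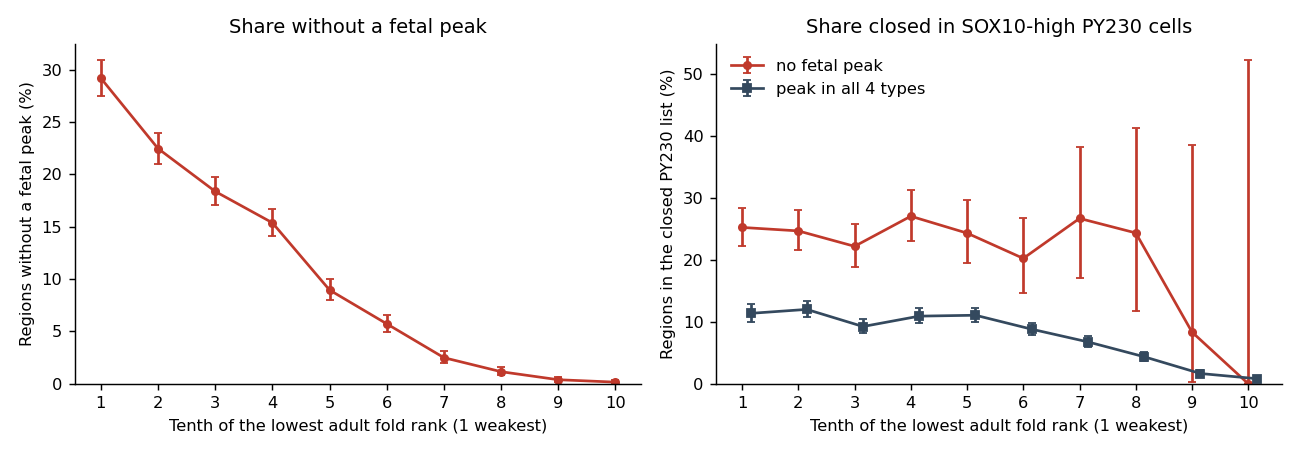
Regions with a peak in all 3 adult types, sorted into 10 classes by the lowest of their 3 adult fold ranks (horizontal axis, class 1 weakest): share without a fetal peak (left, percent) and share in the closed PY230 list (right, percent) for regions without (red) and with (dark) a fetal peak, with exact 95% binomial intervals. The left share declines from 29.2% to 0.158%, and on the right red points lie above dark ones in classes 1 to 9, with wide intervals in the last classes.

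The closed share moved with the rank of the mature luminal peak. Sorted into 5 classes by that rank, adult-shared regions were closed in 5.65% (51 of 902, exact interval 4.24 to 7.37%) of cases in the weakest class. The share was 11.2%, 26.8% and 46.8% in the next classes and 69.2% (238 of 344, 64.0 to 74.03%) in the strongest. In regions with all 4 peaks it stayed between 4.16% and 9.16% across the same classes. Where the mature luminal peak led the 3 adult ranks, 645 of 1568 regions (41.1%) were closed. Where the basal peak led the share was 12.1% (107 of 885), and where the luminal progenitor peak led it was 3.72% (28 of 752). Regions with all 4 peaks had the same order at lower values: 18.1% with the mature luminal peak leading, 5.47% with the basal and 2.53% with the luminal progenitor peak. Inside mature luminal UARs 229 of 277 regions (82.7%, 77.7 to 86.9%) were closed, and outside them 551 of 2928 (18.8%, 17.4 to 20.3%). Regions with all 4 peaks were closed in 63.5% (172 of 271, 57.4 to 69.2%) inside these UARs and in 6.78% outside them. The difference outside was 12.04 points (10.6 to 13.5).

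The mature luminal peak outranked the other adult peaks more often in regions without a fetal peak, as within-list ranks. The mature luminal rank exceeded the luminal progenitor rank in 62.1% of adult-shared regions and in 41.1% of regions with all 4 peaks, and the basal rank in 61.7% and 30.7%. With regions sorted into 4 classes by mature luminal minus luminal progenitor rank, closed shares were 3.76% without and 2.79% with a fetal peak in the lowest class (difference 0.971 points, -0.201 to 2.56). They were 58.2% and 46.3% in the highest (11.9 points, 7.57 to 16.2). When regions with all 4 peaks were weighted to the spread of the adult-shared regions over 16 classes of both rank gaps, their closed share was 20.2%. The difference then came to 4.12 ± 0.886 points (SE, counting error only), and the adult-shared regions were more often closed in 11 of the 16 classes. With 36 classes of both gaps it was 3.54 ± 0.894 points, and they were more often closed in 20 of the 36. The smallest of the 36 classes held 6 regions with all 4 peaks. Both weightings and those that follow were chosen after the data were seen. Weighted over 4 classes of a single measure, the difference was 6.86 points for the gap to the luminal progenitor rank and 9.72 points for the gap to the basal rank. It was 15.3 points for width and 17.5 points for the mature luminal rank itself. The difference was therefore smaller with weighting by rank gaps and changed little with weighting by width or by mature luminal rank.

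**Figure D5:**
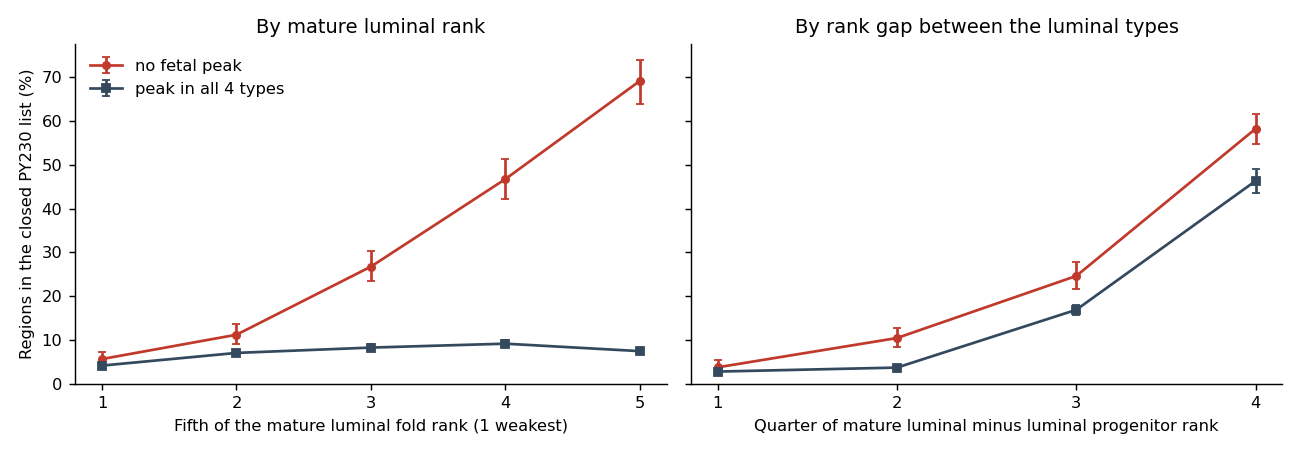
Share of regions in the closed PY230 list (vertical axis, percent, with exact 95% binomial intervals) without (red) and with (dark) a fetal peak, by 5 classes of mature luminal fold rank (left) and by 4 classes of mature luminal minus luminal progenitor rank (right). On the left the red points run from 5.65% to 69.2% and the dark points lie between 4.16% and 9.16%. On the right both are highest in the last class, at 58.2% and 46.3%.

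Adult-shared regions near a fetal peak were closed less often. Within 1 kb of an fMaSC peak the closed share was 11.4% (48 of 421, 8.53 to 14.8%). It was 24.4% (458 of 1879, 22.4 to 26.4%) from 1 to 10 kb and 30.4% (268 of 882, 27.4 to 33.5%) from 10 to 100 kb. The median lowest adult rank was 20.6, 23.7 and 23.7 in these groups. Beyond 100 kb 6 of 23 regions (26.1%, 10.2 to 48.4%) were closed. Closed shares of other regions at these distances, and widths and rank gaps by distance, are not given here. Whether the pattern is particular to adult-shared regions was not tested. Regions in a fetal URR were closed in 20.0% (29 of 145, 13.8 to 27.4%) and the other adult-shared regions in 24.5% (751 of 3060, 23.0 to 26.1%). The intervals overlapped, but an interval of the difference is not given here. The median lowest adult rank also differed, 61.5 inside URRs and 23.0 outside.

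Very few adult-shared regions were open in SOX10-high cells. The open PY230 list held 16 of 3205 (0.499%, 0.286 to 0.809%), below the 1.88% of all merged regions but near the 0.408% of regions with a mature luminal peak. Regions with all 4 peaks were open in 0.404% (113 of 27947), and the difference of 0.0949 points (-0.113 to 0.412) did not exclude 0. Luminal progenitor peaks led in 10 of the 16, and mature luminal peaks in 1. In regions with all 4 peaks they led in 59 and 9 of the 113 open regions. Regions with a luminal progenitor peak alone were open in 9.66%, and those with a mature luminal peak alone in 0.158%. The order was therefore not particular to the adult-shared regions. The highest open score, 185, belonged to chr18:21128127-21130643, where the fold was 24.1 in luminal progenitors, 17.7 in mature luminal cells and 5.17 in basal cells. Another of the 5 highest, chr15:68908940-68910423, had a luminal progenitor fold of 17.5, a basal fold of 10.3 and a mature luminal fold of 6.97, and overlapped a luminal progenitor UAR. Among adult-shared regions, closed and open ones lay mostly at opposite ends of the luminal rank gap. Of the 16 open regions, 12 lay in the class where the luminal progenitor rank most exceeded the mature luminal rank, which held only 30 of the 780 closed regions. The class at the other end held 470 closed and 2 open regions.

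The regions were spread over all chromosomes. Among regions with 3 adult peaks, the share without a fetal peak ranged from 8.33% on chromosome 3 to 12.7% on chromosome 14. Chromosome X carried 84 adult-shared regions (2.62%, 2.1 to 3.23%), against 2.24% of regions with all 4 peaks and 2.14% of all merged regions, so the interval held both. Another adult-shared region lay within 10 kb of 444 of them (13.9%, 12.7 to 15.1%). A neighbour of the same pattern was as near for 15.1% of the 4083 regions with peaks in the luminal types only. It was so for 10.1% of the 2869 with basal and luminal progenitor peaks only, and for 45.8% of those with all 4 peaks. Among the other regions with 3 of 4 peaks it was 8.17% of the 1996 lacking a basal peak. For the 2464 lacking a luminal progenitor peak it was 7.06%, and for the 8330 lacking a mature luminal peak 21.1%. The number of regions of a pattern enters this share, so the values are a description only. A region with all 4 peaks lay within 10 kb of 1714 adult-shared regions (53.5%), and that share for other regions is not given here.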

How the data were processed

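Per the labels' protocols, nuclei of sorted cells were treated with Nextera transposase and paired-end libraries sequenced on an Illumina HiSeq instrument. The mm9 build is named in the submitters' processing notes together with MACS2 2.1.1, SICER, Bowtie 0.12.8, bedtools 2.20.1, SAMtools 1.3.1 and FastQC, without roles. Each deposited peak list pools 2 samples and gives each peak a fold, the ratio of enrichment over background. UAR, URR and PY230 lists carry a score deposited by the authors, of unstated scale. The sources used here do not say how duplicates and repeats were handled, and depth per sample is unknown.

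Peaks of 19 autosomes and X were merged where they overlapped or touched, with 1-based coordinates, and an overlap was at least 1 bp. Shares have Clopper-Pearson intervals and differences Newcombe intervals. No test across samples was possible, because the lists pool samples. Functions were tested on simulated lists, against bedtools 2.31.1. Python 3.11.15, numpy 2.4.6, scipy 1.17.1 and matplotlib 3.10.9 were used. Regions named were those of highest lowest-of-3 rank, highest rank in each adult type, highest URR or PY230 score, greatest width and those nearest the edge of the rule, of which the text gives the ones that bear on a comparison. Members and comparisons were chosen with earlier results of these data known, and classes by mature luminal rank, rank gap, UAR and distance to a fetal peak were added after the lists were seen. Gene names, motifs and promoters were not analysed here, since no mm9 genome or annotation was used.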

Additional observations from a re-analysis of the deposited data

How the results depend on the processing

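The excess of closed regions over regions with all 4 peaks was above 0 under all 11 alternatives, 4 of them added after the data were seen. It was 11.2 points with the 30015 strongest peaks of each list, 13.4 with peaks at or above the median fold, 18.96 without fetal peaks within 1 kb, 12.04 outside mature luminal UARs and 4.12 after weighting by rank gaps. The closed share was 14.5%, 17.5%, 26.3% and 18.8% under the first 4 of these. The open share was 0.116% with the strongest peaks and 0.205% above the median fold, and the interval of the open difference held 0 under all 7 alternatives. Regions numbered 1723 with the strongest peaks and 1462 above the median fold. Both settings cut the fetal list too, so their counts and shares include regions whose fetal peak fell below the cut. The share of regions with 3 adult peaks that lacked a fetal peak was 11.1% and 8.55% under these settings. It was 10.9% with peaks set to 500 bp and 9.63% with peaks within 500 bp joined. With adult-shared regions within 1 kb of a fetal peak left out, from the total too, it was 9.06%. Within 50 kb, 35.9% had another such region. Where these changes were not set by the alternative's own construction, the cause was not tested. Motif and start-site alternatives were not run. No paired analysis was possible because every list pools the samples of a type, so no sample could be left out either.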

Other observations

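The densest 1 Mb window of adult-shared regions lay on chromosome X from 47903102 to 48903101 (mm9) and held 17 of them among 53 merged regions (32.1%), with 7 regions that had a peak in all 4 types. Their folds ran from 3.88 to 9.70 for basal, 3.74 to 10.2 for luminal progenitor and 5.23 to 20.9 for mature luminal peaks. Of the 17, 1 was closed in SOX10-high PY230 cells and 0 were open. Over all adult-shared regions 24.3% were closed and 0.499% open, and over all merged regions 11% and 1.88%. On chromosome X as a whole 10 of 84 adult-shared regions (11.9%) were closed. The next windows, on chromosome 17 from 31521846 to 32521845 and on chromosome 6 from 30998748 to 31998747, held 16 each, among 138 and 116 merged regions. Of these adult-shared regions 4 and 2 were closed, where the share on either chromosome as a whole was 31.1%. These counts are small and were not tested. The widest adult-shared region, chr4:150237817-150242851, spanned 5035 bp, but all 3 adult types had a peak over only 269 bp of it. The second widest, chr3:96363601-96368467 (4867 bp), shared 1709 bp and overlapped a fetal URR, with folds of 10.3 for basal, 8.52 for luminal progenitor and 9.22 for mature luminal peaks.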
